A study of Mus musculus with 6 samples.

Results

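The potassium channel genes were taken as every listed gene whose symbol begins with Kcn, without the noncoding RNA Kcnq1ot1. This gave 98 of the 30631 genes in each deposited table, of which 94 encode channel or accessory subunits in 21 subfamilies and 4 are RNAs transcribed from the opposite strand of such a gene. They were measured by RNA sequencing in mouse embryonic stem cell-derived cells described as of the sinoatrial node kind. Sinoatrial node cells are the pacemaker cardiomyocytes of the heart, but markers of other cell types were present here too, as given below. One group was 3 libraries of wild type (Shox2+/+) genotype and the other was 3 libraries of Shox2-/- genotype. Shox2 is a homeodomain transcription factor that sinoatrial development requires, and the comparison asks what changes when it is absent. All clones, of both groups, grew on mouse embryonic fibroblast feeders before hanging drop differentiation, and cells carrying CD166, the surface protein encoded by Alcam, were sorted from them at stage 7+1 day. The 3 knockout titles share a prefix that reads like a clone name, and the wild type titles do not, so an effect of genotype and one of clone cannot be told apart. The titles also carry a Diff number whose meaning is not stated. Libraries 1 and 2 labelled wild type and library 3 labelled knockout share the number 9, and the other 3 libraries each have their own. Whether libraries with the same number come from the same differentiation cannot be told. Separate cultures within a group are not stated either, and p-values therefore measure only how far these libraries spread, which may be technical.

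Potassium channels let potassium leave the cell, which repolarises the membrane after an action potential and holds it negative between beats. Voltage-gated channels (Kcna to Kcnd, Kcnh and Kcnq) open on depolarisation, inward rectifiers (Kcnj) hold the resting potential or answer to G proteins and ATP, and tandem pore channels (Kcnk) carry leak current. Calcium- and sodium-activated channels (Kcnma, Kcnn, Kcnt) couple the membrane to ion entry, while Kcnab, Kcne, Kcnip and Kcnmb genes encode accessory subunits that change gating or trafficking. Pacemaker cells of the adult sinoatrial node are known for little inward rectifier current IK1, a marked delayed rectifier IKr and an acetylcholine-activated current, IKACh.

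Recovered reads assigned to genes came to between 13504683 and 34650564 per library. Shox2 itself went against the labels, at 89.6, 83.4 and 31.4 normalised counts in libraries 1, 2 and 3 with the wild type label and 201, 548 and 373 in those with the knockout label (limma adjusted p = 0.201). A transcript that lacks a deleted part can still be counted, and which part was deleted is not given in the sources used here, so groups are called by their labels throughout. Libraries 1 and 2 labelled wild type were the closest pair, with 2.69% spread beyond counting error against 9.62% to 23.5% in the other pairs. Library 3 labelled wild type stood apart from that pair. Cardiomyocyte markers were present in every library (summed counts of 7 markers, 6720 to 13693 labelled wild type and 7708 to 15643 labelled knockout), and so were sinoatrial markers (7 markers, 3158 to 6956 and 3379 to 3702). The sinoatrial sum includes Shox2 itself, and its members did not move alike. In library 3 labelled wild type most of it was Smoc2 (5712). Smoc2, Isl1 and Tbx3 were the highest of their label there, and Hcn4 (79.3), Vsnl1 (5.50), Tbx18 and Shox2 the lowest. Markers of other cell types were present too. They summed to 713 to 3173 and 949.6 to 1189.7 for 8 neural markers, 42522 to 49284 and 39168 to 48993 for 4 smooth muscle markers, 3436 to 13579 and 7924 to 11969.9 for 4 endothelial markers, and 37561 to 53810 and 22391 to 24643 for 4 fibroblast or feeder markers. The sums were 2692 to 7740.1 and 154 to 2201 for 5 endoderm markers, 8111 to 12594 and 5746 to 15540 for 6 epithelial markers, and 244 to 470.3 and 181 to 304.5 for 3 pluripotency markers. None of these markers was at 0 in any library. Because the samples are bulk, fewer cells of a type and less RNA per cell cannot be told apart.

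The channel repertoire of these bulk samples was led by a few genes. Levels between genes are given as normalised count per kilobase of annotated exon, as means over the 6 libraries. Kcnq5, a subunit of the slowly activating M-type current, was the highest channel gene in each of the 6 libraries, with a mean of 257 per kilobase (range 161 to 324). It held 11.8% to 21.1% of the summed level per kilobase of the 94 channel genes. Kcnh2, the pore subunit of IKr, followed at 124 (range 61.3 to 155) and Kcnk3, the acid-sensitive leak channel TASK-1, at 117 (range 30.8 to 212). The ranges of Kcnh2 and Kcnk3 overlapped, and their order differed between libraries. Kcnk5, another acid-sensitive leak channel, stood at 99.7 and Kcnj2, the main subunit of IK1, at 68.9. The 5 highest genes of a library made up 42.3% to 49.0% of its summed level. At the other end, 43 of the 98 genes did not reach a value of 10 in 3 libraries, with a median of 3.29 over their mean values, and 21 of these were at 0 in at least 1 library. Each library held between 49 and 58 of the 94 channel genes at a value of 10 or more. Together the 98 genes took 0.0457%, 0.0449% and 0.0362% of the reads in libraries 1, 2 and 3 with the wild type label and 0.0299%, 0.0323% and 0.0386% in those with the knockout label, so these ranges overlapped.

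**Figure D1:**
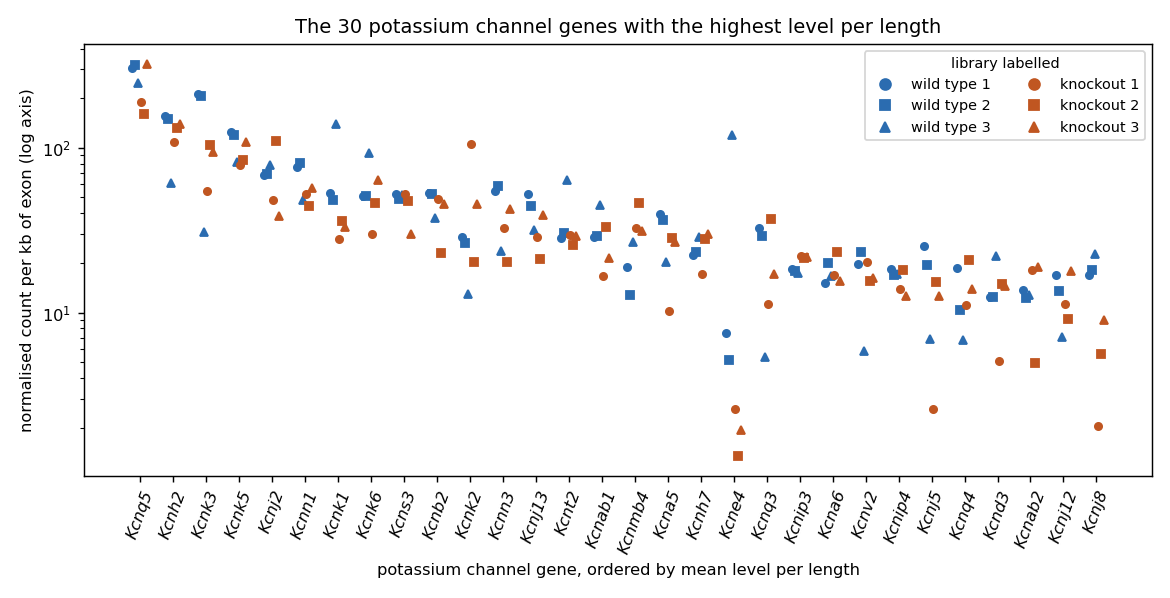
Normalised count per kilobase of exon (log axis) of the 30 highest potassium channel genes, ordered by their mean over 6 libraries, with 1 point per library (blue labelled wild type, orange labelled knockout, shape for the library number). Kcnq5 lies highest in each library, and the blue triangles of library 3 labelled wild type leave the other blue points at Kcnk3, Kcnh2 and Kcne4.

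No difference between the labelled groups in a potassium channel gene passed the adjusted threshold. Expression was compared in 55 of the 98 genes, those reaching a value of 10 in 3 or more libraries, of which 54 reached it through libraries of both labels and Kcne4 only through those labelled wild type. The limma test called 0 of the 55 at an adjusted p under 0.05, as it called 0 of all 17034 genes tested (0%), and the lowest adjusted p among the 55 was 0.238. At an unadjusted p under 0.05 there were 7 of 55 (12.7%), against a background of 14.2% of all genes tested. Of these, 2 were higher in the libraries labelled knockout (3.64%, background 6.92%) and 5 lower (9.09%, background 7.23%). With quality weights per library, limma's voom method called 303 of the 17034 genes and 0 of the 55. At a share that low, 0 of 55 does not set these genes apart. The weights were 3.59 and 4.22 for libraries 1 and 2 labelled wild type, the closest pair, and 0.206 for library 3 of that label. They were 0.581 to 0.884 with the knockout label, so that pair largely stood for the wild type label in this fit. With libraries 1 and 2 labelled wild type averaged as 1 sample, 5 of 55 had an unadjusted p under 0.05, against 9.30% of all genes tested. The groups did not overlap in 11 of 55 (20%, background 23.6%), with 3 higher (5.45%, background 12.8%) and 8 lower (14.5%, background 10.8%). The totals are near the background, and the shares of higher genes are below it. The direction was less even: 40 of 55 had a log2 change below 0 (72.7%), against 48.2% of all genes tested, with medians of -0.34 and 0.01. Without the filter on low values, 72 of 98 (73.5%) lay below 0 against 55.7% of 30282 genes, so all genes leaned lower once low ones were let in. The 55 held more low genes, as 27 of them and 13320 of the 17034 passed a filter at 50 in 3 libraries. Of these 27, 19 lay below 0, and the share over all genes at that filter was not worked out. The part of level in the direction was not tested. Among the 43 genes under the filter, groups did not overlap in 9 (20.9%), against 7.75% of all 13248 genes that were above 0 in some library and under the filter. The level differed too, with a median over mean values of 3.29 in the 43 and 0.872 in the 13248, and its part in the share was not tested. Of the 9, 3 were higher (6.98%, background 1.73%) and 6 lower (14%, background 6.02%). These are descriptions and were given no test. Many single estimates moved with single libraries: in 45 of 53 genes examined, leaving out 1 library moved the log2 change by more than 1.5-fold or turned it. An estimate near 0, such as that of Kcnh7 (-0.02) or Kcnj4 (-0.03), passes this mark easily, and no share over all genes was worked out. The values without such a library are given below for the genes it concerns most.

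**Figure D2:**
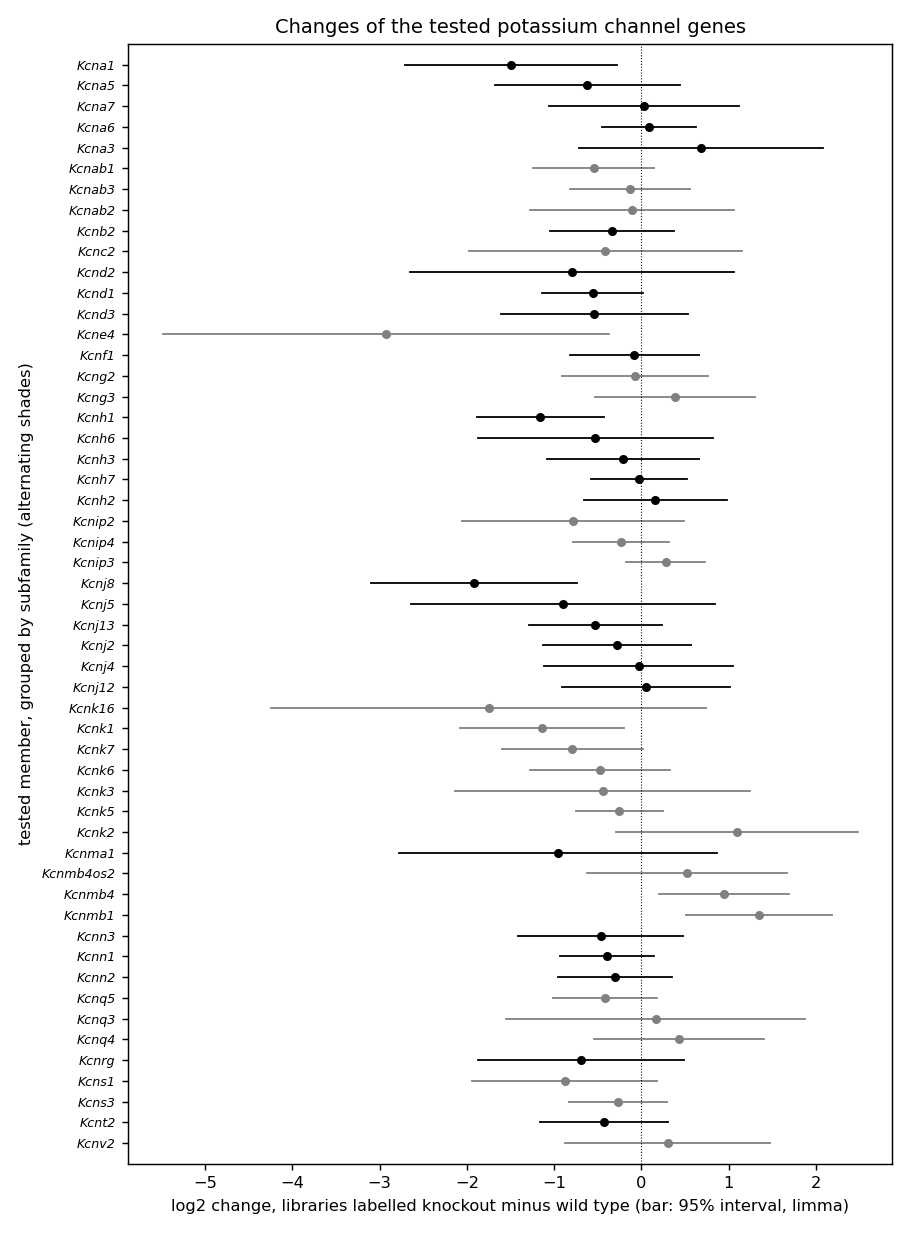
Log2 change, libraries labelled knockout minus those labelled wild type, of 53 tested genes grouped by subfamily in alternating shades, with points for the estimate and bars for limma's 95% interval. Of the points, 39 lie left of the dotted line at 0, and 7 bars do not cross it.

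Among the inward rectifiers, 6 of 15 Kcnj genes were tested, 1 with a higher and 5 with a lower estimate, and Kcnj8 had the lowest p of all 55 genes. Kcnj8 (chr6:142564837-142571614 on the minus strand, GRCm38) encodes Kir6.1, a pore subunit of ATP-sensitive potassium channels known from smooth muscle and pericytes. Here and below, 3 values in a row are normalised counts in libraries 1, 2 and 3 of a label. Kcnj8 stood at 43.1, 46.3 and 58.1 with the wild type label and 5.19, 14.3 and 23.0 with the knockout label. Each library labelled knockout lay below each labelled wild type, with means of 49.2 ± 7.89 against 14.2 ± 8.89 (SD, n = 3 each). The log2 change was -1.92 (SE 0.50, 95% interval -3.10 to -0.74, limma adjusted p = 0.238), and recovered reads were 26, 71 and 74 against 3, 16 and 31. Abcc9, which encodes the sulphonylurea receptor SUR2 that pairs with Kir6.1 and is a neighbour of Kcnj8 on the chromosome, stood at 113, 110.2 and 242 with the wild type label and 25.9, 59.0 and 68.1 with the knockout label (log2 change -1.59, SE 0.45, limma adjusted p = 0.253). Both genes were lower in each library labelled knockout. Myh11, a smooth muscle marker, was likewise at 83.0, 79.5 and 137 with the wild type label and 24.2, 42.9 and 31.1 with the knockout label, while Acta2, another, was at 36376, 36544 and 38286 with the wild type label and 32856, 41693 and 42742 with the knockout label. Cnn1 was at 304, 267 and 209.6 with the wild type label and 142, 164 and 149 with the knockout label, so Cnn1 and Myh11 were lower in each library labelled knockout. Of the 4 smooth muscle markers, 1 had a higher and 3 a lower estimate, and their summed ranges, made up mostly of Acta2, overlapped. Their part in the result was not tested. The other ATP-sensitive pore gene, Kcnj11, was at or under 2.96 in each library and was not tested.

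The IK1 genes did not separate by label. Kcnj2 was at 373, 378 and 425 with the wild type label and 263, 599.7 and 210.4 with the knockout label (log2 change -0.28, SE 0.36, limma adjusted p = 0.748). Its 3 libraries labelled knockout enclosed all 3 labelled wild type. Kcnj12 was at 46.5, 37.1 and 19.6 with the wild type label and 31.1, 25.0 and 48.9 with the knockout label and Kcnj4 at 23.2, 15.6 and 23.6 with the wild type label and 27.7, 9.83 and 28.9 with the knockout label, each with a log2 change under 0.1 in size. For IKACh, Kcnj5 (Kir3.4) was at 119.5, 91.2 and 32.2 with the wild type label and 12.1, 71.5 and 59.3 with the knockout label (log2 change -0.90, SE 0.74, limma adjusted p = 0.602), with overlapping groups. Library 1 labelled knockout was the lowest, and without it the log2 change was -0.12. Its partner Kcnj3 (Kir3.1) was low, at 6.64, 7.82 and 11.8 with the wild type label and 1.73, 0.890 and 1.48 with the knockout label, and did not reach the filter. The groups of Kcnj3 did not overlap, and in the fit without a filter its log2 change was -2.02 (SE 0.48, limma adjusted p = 0.231), with recovered reads of 4, 12 and 15 against 1, 1 and 2. The exons of Kcnj3 overlap those of the predicted gene Gm26794, so reads could have been shared.

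The large-conductance calcium-activated (BK) channel showed unlike values for its subunits. The pore gene Kcnma1 was at 34.9, 24.8 and 186 with the wild type label and 13.8, 42.0 and 36.3 with the knockout label (log2 change -0.95, SE 0.78, limma adjusted p = 0.594), where library 3 labelled wild type was far above the other 5 libraries, and without it the log2 change was -0.08. The smooth muscle-type accessory subunit Kcnmb1 (chr11:33963013-33973641 on the plus strand) was at 29.9, 20.2 and 12.6 with the wild type label and 53.6, 58.1 and 44.4 with the knockout label. Each library labelled knockout was above each labelled wild type, with means of 20.9 ± 8.68 against 52.1 ± 6.96 (SD, n = 3 each). Kcnmb1 lies within the span of Kcnip1 on the opposite strand, with no exon bases shared. Its log2 change was 1.35 (SE 0.36, 95% interval 0.51 to 2.19, limma adjusted p = 0.244). The neural-type accessory subunit Kcnmb4 (chr10:116417861-116473878 on the minus strand) was at 63.1, 42.4 and 89.5 with the wild type label and 109, 154 and 104 with the knockout label, again without overlap, with means of 65.0 ± 23.6 against 122 ± 27.2 (SD, n = 3 each) (log2 change 0.95, SE 0.32, limma adjusted p = 0.289). Kcnmb4os2, an RNA on the opposite strand that shares 693 bases of exon with Kcnmb4, was at 8.30 to 18.8 with the wild type label and 10.4 to 31.3 with the knockout label. Its groups overlapped, and since no source says whether counting used strand, reads of this pair cannot be assigned with certainty. Kcnmb1 and Kcnmb4 were the 2 genes that were higher at an unadjusted p under 0.05. The small-conductance (SK) genes all had lower estimates with overlapping groups. Kcnn1, the highest of them, was at 349, 372 and 221 with the wild type label and 240.5, 203 and 261 with the knockout label (log2 change -0.39, SE 0.23, limma adjusted p = 0.466). Kcnn3 had a log2 change of -0.47 (adjusted p = 0.619) and Kcnn2 one of -0.31 (adjusted p = 0.636). The sodium-activated Kcnt2 was at 194, 209 and 437 with the wild type label and 202, 177 and 201 with the knockout label (adjusted p = 0.545), with library 3 labelled wild type above the other 5 and a log2 change of -0.43 with it and -0.06 without it.

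The start regions of Kcnj8, which had the lowest p, and of both genes that were higher at an unadjusted p under 0.05 are shown because a homeodomain factor is the labelled variable and because they differ in base composition. Each is 300 bases, 250 before and 50 after a transcript start, in RefSeq's GRCm38.p6 annotation, printed 5′ to 3′ on the gene's strand, with GGGCGG or its reverse complement CCGCCC in capitals. The region of Kcnj8 is chr6:142571565-142571864 on the minus strand (53.3% G or C), that of Kcnmb1 is chr11:33962763-33963062 on the plus strand (49.7%), and that of Kcnmb4 is chr10:116473474-116473773 on the minus strand (79.0%).
Kcnj8: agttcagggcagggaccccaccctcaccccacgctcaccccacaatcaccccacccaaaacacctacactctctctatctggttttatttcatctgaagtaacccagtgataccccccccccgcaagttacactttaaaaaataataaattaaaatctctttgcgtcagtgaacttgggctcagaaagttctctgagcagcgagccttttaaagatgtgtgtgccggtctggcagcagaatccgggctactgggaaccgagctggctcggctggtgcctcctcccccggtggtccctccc
Kcnmb1: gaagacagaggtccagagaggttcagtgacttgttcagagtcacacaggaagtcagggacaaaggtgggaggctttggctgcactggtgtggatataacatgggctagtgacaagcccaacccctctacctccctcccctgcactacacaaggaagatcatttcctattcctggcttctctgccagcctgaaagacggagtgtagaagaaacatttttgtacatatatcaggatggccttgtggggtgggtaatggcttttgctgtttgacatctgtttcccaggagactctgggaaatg
Kcnmb4: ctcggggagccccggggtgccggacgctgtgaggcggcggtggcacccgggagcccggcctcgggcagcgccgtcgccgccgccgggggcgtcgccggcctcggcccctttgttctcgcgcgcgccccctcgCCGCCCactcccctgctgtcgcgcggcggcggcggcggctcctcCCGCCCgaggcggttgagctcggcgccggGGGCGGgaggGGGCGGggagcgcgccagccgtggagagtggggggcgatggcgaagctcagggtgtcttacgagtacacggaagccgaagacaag
Kcnmb4 holds 4 copies of GGGCGG, counted on both strands, where Kcnj8 and Kcnmb1 hold none. The median over all 32851 regions of this length was 52.7% G or C. RefSeq regions matched 71 of the 98 genes, with 96 regions in all, since some genes have several starts. GGGCGG was in 46 of these 96 (47.9%) and in 35.7% of all regions. TAATTA, a homeodomain core, was in 0 of 96 and in 5.29% of all regions, and the paired homeodomain palindrome with a spacer of 3 bases was in 0 of 96 and 0.487%. TATAAA was in 5 of 96 (5.21%) and in 13.6% of all regions, and the CArG box in 0 of 96 and 1.63%. Both strands were searched. The 96 regions were not matched to all regions in base composition, and some overlap each other, as those of Kcnc2 do. A match is a description and no match concerns these windows only.

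Of the 14 tandem pore (Kcnk) genes, 7 were tested, 1 with a higher and 6 with a lower estimate. Kcnk1 (chr8:125995170-126030685 on the plus strand), the weakly conducting leak channel TWIK-1, was at 119.5, 108 and 309 with the wild type label and 62.3, 80.4 and 73.3 with the knockout label, with no overlap (log2 change -1.14, SE 0.40, limma adjusted p = 0.301). Library 3 labelled wild type carried much of the difference, and without it the log2 change was -0.66. Kcnk3 was at 843, 815 and 122 with the wild type label and 216, 410.3 and 376 with the knockout label. Library 3 labelled wild type was the lowest of all 6, although the other 2 libraries of its label were the highest (log2 change -0.45, SE 0.72, limma adjusted p = 0.807), and without it the log2 change was -1.36. The stretch-activated Kcnk2 (TREK-1) was at 143, 129.7 and 64.4 with the wild type label and 521, 100.1 and 225 with the knockout label (log2 change 1.09, SE 0.59, limma adjusted p = 0.433). Library 1 labelled knockout was the highest and library 2 of the same label lay among those labelled wild type. Without library 1 labelled knockout the log2 change was 0.50. Kcnk2 shares exon bases with an opposite-strand RNA, A430027H14Rik.

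Of the Kcnh genes, 5 of 8 were tested, 1 with a higher and 4 with a lower estimate. Kcnh1 (chr1:192190774-192510159 on the plus strand), which encodes the ether-à-go-go channel EAG1, was at 49.8, 42.4 and 36.9 with the wild type label and 20.8, 13.4 and 23.0 with the knockout label. Each library labelled knockout was below each labelled wild type, with means of 43.0 ± 6.47 against 19.0 ± 5.0 (SD, n = 3 each) (log2 change -1.16, SE 0.31, 95% interval -1.88 to -0.43, limma adjusted p = 0.246). Kcnh2 was at 752, 726 and 297 with the wild type label and 526, 636 and 673 with the knockout label (log2 change 0.16, SE 0.35, limma adjusted p = 0.864). With voom's quality weights its log2 change turned to -0.19. Its libraries labelled knockout lay between library 3 labelled wild type and the other 2 of that label. Kcnh5, which the filter left out and which was picked after its values were seen, was at 1.66, 5.87 and 4.71 with the wild type label and 93.4, 6.26 and 15.6 with the knockout label. Library 1 labelled knockout was far above the other 5. Kcne2, an accessory subunit linked to IKr, was at or under 5.19 in each library.

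The Kcnq genes and their Kcne subunits were unevenly detected. Kcnq5 (chr1:21398403-21961942 on the minus strand) was at 2342, 2442 and 1894 with the wild type label and 1465, 1239.7 and 2491 with the knockout label (log2 change -0.42, SE 0.25, limma adjusted p = 0.477). Library 3 labelled knockout was the highest of the 6 and the other 2 of its label were the lowest. Kcnq3, another M-current subunit, picked after its values were seen, was at 479.7, 426 and 79.3 with the wild type label and 166, 546 and 253 with the knockout label (log2 change 0.17, SE 0.73, limma adjusted p = 0.930). For the slow delayed rectifier IKs, Kcnq1 was at 9.96, 11.1 and 4.71 with the wild type label and 3.46, 5.36 and 8.89 with the knockout label and Kcne1 at or under 3.32 in each library, so neither was tested. Kcne4 (chr1:78816758-78820028 on the plus strand), an accessory subunit known to inhibit Kcnq1 channels, was the tested member of its subfamily. It was at 19.9, 13.7 and 319.5 with the wild type label and 6.92, 3.58 and 5.18 with the knockout label (log2 change -2.93, SE 1.09, limma adjusted p = 0.309), with recovered reads of 12, 21 and 407 against 4, 4 and 7. The groups did not overlap, but library 3 labelled wild type was 19.0-fold above the mean of the other 2 of its label. Without it the log2 change was -1.53.

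For the transient outward current Ito, all 3 tested genes of 4 had lower estimates with overlapping groups. Kcnd3 was at 119.5, 119 and 211 with the wild type label and 48.4, 142 and 139 with the knockout label (log2 change -0.54, SE 0.46, limma adjusted p = 0.609). Library 1 labelled knockout was the lowest, and without it the log2 change was -0.04. Kcnd2 was at 9.96, 11.7 and 83.2 with the wild type label and 13.8, 17.0 and 7.41 with the knockout label, where library 3 labelled wild type stood far above the others, with a log2 change of -0.80 with it and 0.15 without it. The accessory Kcnip2 was at 28.2, 25.4 and 22.0 with the wild type label and 24.2, 5.36 and 20.7 with the knockout label (log2 change -0.78, SE 0.54, limma adjusted p = 0.528), with library 2 labelled knockout the lowest and a log2 change of -0.16 without it, and Kcna4, at 11.6, 9.12 and 13.3 with the wild type label and 5.19, 9.83 and 7.41 with the knockout label, did not reach the filter. Kcnd1, the third Kcnd pore gene, was at 48.1, 67.8 and 55.0 with the wild type label and 41.5, 34.9 and 37.8 with the knockout label, without overlap (log2 change -0.56, SE 0.25, limma adjusted p = 0.359). Kcnip3, which also acts as the transcriptional repressor DREAM, was at 64.7, 63.2 and 62.0 with the wild type label and 77.8, 76.0 and 77.0 with the knockout label. Those groups did not overlap and each group was tight, but the difference was small (log2 change 0.28, SE 0.19, limma adjusted p = 0.529).

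Of the other voltage-gated genes, Kcna1 (chr6:126640397-126646384 on the minus strand), a Shaker-type pore subunit known from axons, was at 19.9, 16.9 and 18.8 with the wild type label and 10.4, 8.04 and 2.22 with the knockout label, without overlap (log2 change -1.50, SE 0.52, limma adjusted p = 0.297). Recovered reads of Kcna1 were 12, 26 and 24 against 6, 9 and 3, and without library 3 labelled knockout, the lowest, the log2 change was -0.95. Kcna5, the pore gene of the atrial ultrarapid current IKur, was at 113, 104 and 58.1 with the wild type label and 29.4, 81.3 and 77.0 with the knockout label (log2 change -0.62, SE 0.45, limma adjusted p = 0.548). Its groups overlapped, with library 1 labelled knockout the lowest, and without that library the log2 change was -0.15. The delayed rectifier gene Kcnb2 was at 807, 791 and 564 with the wild type label and 740.5, 347 and 690.3 with the knockout label (log2 change -0.34, SE 0.30, limma adjusted p = 0.630), with library 2 labelled knockout the lowest. Kcnc2, a fast-gating pore gene, had a log2 change of -0.41 (adjusted p = 0.808). The accessory beta subunits (Kcnab) all had lower estimates, but Kcnab2 and Kcnab3 were at 0.00100 and 0.08 with voom's quality weights, and Kcnab2 turned to 0.51 without library 2 labelled knockout. Kcnab1 was at 247, 249 and 384 with the wild type label and 144, 285 and 184 with the knockout label (adjusted p = 0.432). Among the tested modulatory subunits (Kcnf, Kcng, Kcns, Kcnv), which form no channel of their own, the groups overlapped in all but Kcns1. Kcns3 was at 166, 154 and 163 with the wild type label and 166, 151 and 94.8 with the knockout label (adjusted p = 0.632). Kcns1 was at 13.3, 12.4 and 34.5 with the wild type label and 8.65, 8.94 and 10.4 with the knockout label, with a log2 change of -0.88 (adjusted p = 0.413), or -0.43 without library 3 labelled wild type. Kcnf1 had -0.08 (adjusted p = 0.921). Kcng3 had a log2 change of 0.39 (adjusted p = 0.678), Kcnv2 of 0.30 (adjusted p = 0.811) and the regulator Kcnrg of -0.69 (adjusted p = 0.545).

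**Figure D3:**
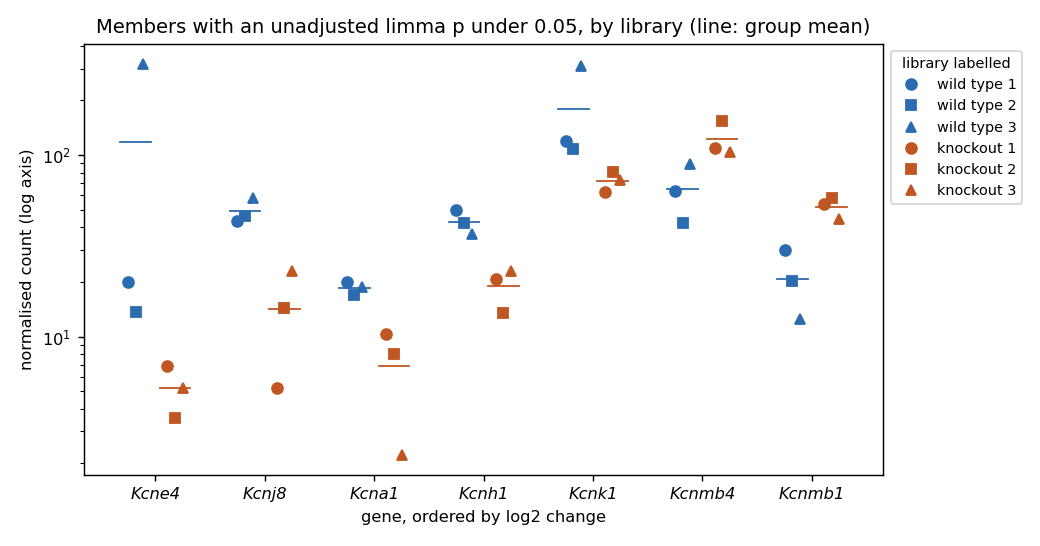
Normalised count (log axis) of the 7 genes with an unadjusted limma p under 0.05, ordered by log2 change, with 1 point per library and a line for each labelled group's mean. In each gene the 3 orange points lie wholly below or wholly above the 3 blue ones, and in Kcne4 and Kcnk1 the triangle of library 3 labelled wild type lies far above the other blue points.

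Library 3 labelled wild type differed from its group in many of these genes. It was more than 2-fold above the mean of the other 2 libraries in 6 of 55 genes and more than 2-fold below it in 13, whereas libraries 1 and 2 differed by more than 2-fold in 1 of 55. The shares beyond 2-fold over all genes tested were not worked out, so whether these counts are particular to channel genes cannot be told. Library 3 labelled wild type was the highest or lowest of the 6 libraries in 24 of 55 genes (43.6%), against 52.1% of all genes tested. Some other libraries were extreme about as often: library 2 labelled knockout in 24 of 55 (43.6%, background 34.9%), library 1 labelled knockout in 22 (40.0%, background 47.9%) and library 1 labelled wild type in 19 (34.5%, background 28.1%). Less often extreme were library 3 labelled knockout, in 13 (23.6%, background 18.6%), and library 2 labelled wild type, in 8 (14.5%, background 18.3%). Among the genes low in library 3 labelled wild type, besides Kcnk3, Kcnh2 and Kcnq3, were Kcnv2 (101, 119 and 29.8) and Kcnj5. Among those high in it were Kcne4, Kcnd2, Kcnma1 and Kcnk1. Markers differed in that library too. The cardiomyocyte gene Myh6 was at 1495, 1342 and 169.6 with the wild type label and 93.4, 507 and 781 with the knockout label and Myl7 at 1957, 1666 and 274 with the wild type label and 206, 1145 and 1427 with the knockout label. Both were low in library 3 labelled wild type and in library 1 labelled knockout. The neural gene Tubb3 was at 154, 138 and 864 with the wild type label and 247, 115 and 147 with the knockout label and the fibroblast gene Dcn at 1711, 1690.0 and 13276 with the wild type label and 512, 1451 and 1461 with the knockout label. Library 3 labelled wild type was the highest of the 6 for both, and for the summed neural (3173) and fibroblast (53810) markers, and the lowest for the summed cardiomyocyte markers (6720). Within each of these lists the markers did not move alike. The cardiomyocyte gene Tnnt2 was at 2090, 2155 and 1711 with the wild type label and 1332, 1475 and 2902 with the knockout label, lowest in library 1 labelled knockout. The neural gene Sox2 was at 198, 192 and 389 with the wild type label and 358, 657 and 547 with the knockout label, highest in library 2 labelled knockout. The fibroblast gene Pdgfra was at 14484, 14659 and 8389 with the wild type label and 14844, 11397 and 11616 with the knockout label, lowest in library 3 labelled wild type. Other lists shifted in library 3 labelled wild type as well. It was the lowest of the 6 for summed endothelial markers (3436) and the highest for summed endoderm markers (7740), mostly through Afp (7020). The part of these markers in the channel values was not tested.

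**Figure D4:**
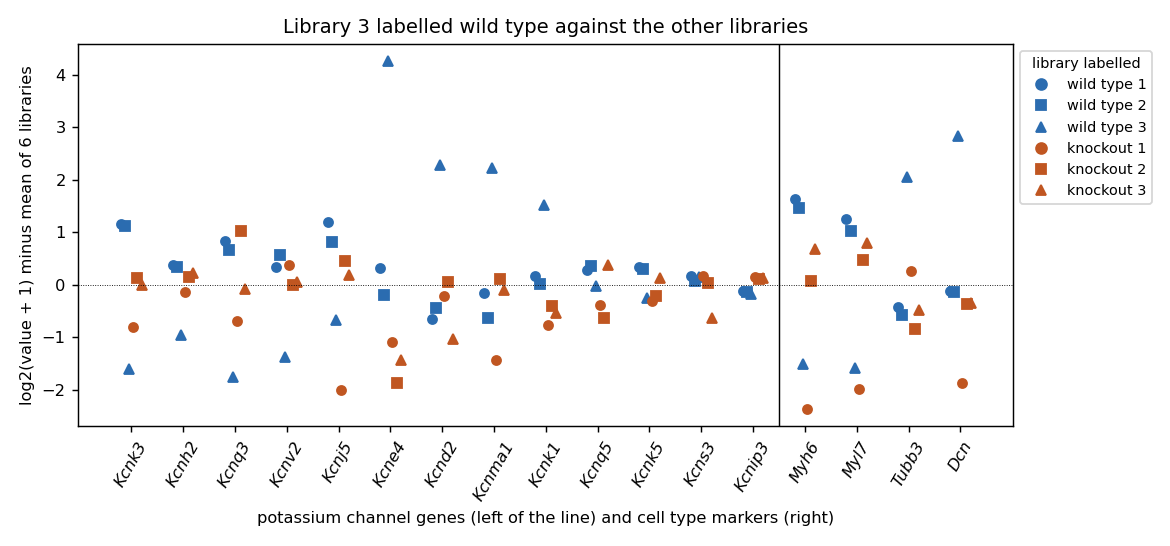
Log2(value + 1) minus the mean of the 6 libraries for 13 potassium channel genes (left of the line) and 4 cell type markers (right), 1 point per library. The triangles of library 3 labelled wild type are lowest or nearly so at Kcnk3, Kcnh2, Kcnq3 and Kcnv2, as at Myh6 and Myl7, and highest at Kcne4, Kcnd2, Kcnma1 and Kcnk1, as at Tubb3 and Dcn. The 4 markers drawn are a choice from longer lists, and Tnnt2, Sox2 and Pdgfra of the same lists went otherwise.

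Genes that work with these channels but carry other symbols were counted from a list of 33, of which 30 were tested. The limma test called 0 of 30 (background 0%). At an unadjusted p under 0.05, 2 of 30 were higher (background 6.92%) and 6 of 30 lower (background 7.23%), so the lower share was above its background. All 10 tested channel partners had lower estimates, as had 48.2% of all genes tested, with median log2 changes of -0.43 and 0.01. Of the 10, Dlg1 (-0.03), Akap9 (-0.07) and Abcc8 (-0.10) were near 0. Besides Abcc9, Dpp10, an accessory subunit of Kcnd channels, was at 16.6, 17.6 and 98.9 with the wild type label and 8.65, 8.94 and 7.41 with the knockout label (log2 change -1.78, SE 0.67, limma adjusted p = 0.315), where library 3 labelled wild type was again far the highest. The G protein arm of IKACh had 6 higher and 4 lower estimates. The muscarinic receptor gene Chrm2 was at 154, 181 and 185 with the wild type label and 151, 236 and 150.4 with the knockout label (adjusted p = 0.982), so its groups overlapped. The adenosine receptor gene Adora1 had a log2 change of 1.15 (adjusted p = 0.317) and Rgs4, which shortens G protein signals, one of -1.20 (adjusted p = 0.320). Of the pumps and cotransporters, 3 had higher and 7 lower estimates. The potassium-chloride cotransporter gene Slc12a4 had the lowest p of the list, at 1846, 1755 and 1763 with the wild type label and 1265, 1328 and 1378 with the knockout label (log2 change -0.43, SE 0.09, limma adjusted p = 0.208), with groups that did not overlap.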

How the data were processed

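Per the labels' protocols, RNA from CD166-sorted cells was sequenced on an Illumina HiSeq instrument. The tools named in the submitters' processing notes are BWA, HTSeq, CASAVA 1.8.2 and DESeq2 1.14.0, and the build is mm10. The notes used here give these tools neither role nor order. The authors deposited 1 normalised count per gene and library. Worked out from the values, each library's read counts had been divided by a size factor, since division by the smallest step gave whole reads for 100% of low values within 0.1 reads. Library 1 of each label was the shallowest, so a value of 10 there stood for fewer reads.

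Values were analysed here as log2(value + 1) in limma 3.58.1 (R 4.3.3), with 1 term for the labelled group, a mean-variance trend, two-sided tests and Benjamini-Hochberg adjustment over the 17034 genes that reached a value of 10 in 3 or more libraries. Changes of low genes are understated on this scale. The script was tested on simulated data. Alternatives were another pseudocount, filter or scaling, voom with quality weights, a term for the 3 libraries with the title number Diff9, averaging of the closest pair and leaving out each library. The whole-read tests planned beside limma were not run.

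Genes were named by a rule: in each subfamily the tested gene with the lowest p and that with the highest level per length, all tested genes with an unadjusted p under 0.05, and genes of the heart's potassium currents. Kcnk5, Kcnq3, Kcnh5, Kcnh4, Kcnh8, Kcnk18, Kcnj14, Kcnc1 and Kcns2 were added after their values were seen. Single results of a few genes are not reported here. Genes and lists were chosen with earlier results of these data known. Positions and exon lengths came from GENCODE M21, in which 30484 of 30631 IDs were found. Of the 55 tested genes, 21 share exon bases with a gene on the opposite strand, and strand use in counting is not given in the sources used here.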

Additional observations from a re-analysis of the deposited data

How the results depend on the processing

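No potassium channel gene was called in any alternative, and the 7 genes with an unadjusted p under 0.05 kept their direction in each. Kcnj8, Kcnmb1 and Kcnh1 had an unadjusted p under 0.05 in 13 of the 13 alternatives that tested them, Kcnk1 in 12 of 14, Kcnmb4 in 11 of 14, Kcna1 in 10 of 13 and Kcne4 in 9 of 13. Over all genes, 2 were called without the filter, 303 with voom's quality weights and 0 to 51 with 1 library left out, the 51 without library 2 labelled knockout. Without the filter, 12 of 98 potassium channel genes had an unadjusted limma p under 0.05, against 10.7% of all genes tested. A filter at 50 gave 2 of 27, against 15.3%, and quality weights 12 of 55, against 22.4%. With 1 library left out there were 5 to 11 of 55, against 8.73% to 16.0%. The 11 came without library 3 labelled wild type, where the share of all genes was 16.0%. Of the 30 tested genes of the partner list, 2 were called with quality weights, against 303 of 17034 genes. Libraries 1 and 2 labelled wild type weighed most in that fit. The median log2 change stayed between -0.44 and -0.19. Some single-gene log2 changes reversed. With quality weights they were Kcna3 -0.13, Kcna6 -0.0431, Kcnab2 0.00100, Kcnab3 0.0782, Kcnh2 -0.19, Kcnh7 0.17, Kcnj12 -0.0889, Kcnj4 0.22, Kcnma1 0.0939, Kcnq3 -0.53, Kcnv2 -0.34. With equal library totals: Kcna7 -0.00559. With libraries 1 and 2 labelled wild type averaged: Kcna7 -0.00531, Kcnk3 0.0122. With a term for libraries numbered Diff9: Kcnab2 0.0598, Kcnj4 0.0477, Kcnk3 0.0678. With 1 library left out, log2 changes ran as follows: Kcna6 -0.0830 to 0.20, Kcna7 -0.37 to 0.42, Kcnab2 -0.44 to 0.51, Kcnb2 -0.54 to 0.00687, Kcnc2 -1.03 to 0.26, Kcnd2 -1.32 to 0.15, Kcnf1 -0.21 to 0.0748, Kcng2 -0.23 to 0.10, Kcnh2 -0.28 to 0.39, Kcnh3 -0.45 to 0.13, Kcnh7 -0.17 to 0.23, Kcnj12 -0.29 to 0.31, Kcnj2 -0.73 to 0.0213, Kcnj4 -0.29 to 0.45, Kcnk3 -1.36 to 0.0247, Kcnq3 -0.67 to 0.62, Kcnv2 -0.31 to 0.67. The cause was not tested. The planned edgeR and DESeq2 fits were not run. Library 1 of each label, with the fewest reads, limits low genes most.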

Other observations

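Among the 43 potassium channel genes under the filter, groups did not overlap in 9 (20.9%), against 7.75% of all 13248 genes that were above 0 in some library and under the filter, whose median level was lower. Kcnh5, Kcnj11 and Kcnj14 were higher and Kcnc1, Kcnh4, Kcnh8, Kcnj3, Kcnk18 and Kcns2 lower with the knockout label. Kcnj3 and Kcnj11 fell under the naming rule, and the others were picked after their values were seen. Fitted without the filter, 12 of 98 genes (12.2%) had an unadjusted p under 0.05, against 10.7% of 30282 genes, and 0 of 98 passed the adjusted threshold in limma. Kcnh4 and Kcnh8 encode ELK-type channels of the same family as Kcnh2. Kcnh4 was at 9.96, 8.47 and 7.85 with the wild type label and 3.46, 0.890 and 2.22 with the knockout label, and its log2 change without the filter was -1.69 (limma adjusted p = 0.309). Kcnh8 was at 8.30, 11.7 and 5.50 with the wild type label and 1.73, 4.47 and 2.22 with the knockout label, with a log2 change of -1.33 (limma adjusted p = 0.405). Kcnk18, a tandem pore channel known from sensory neurons, was at 6.64, 1.30 and 1.57 with the wild type label and 0, 0 and 0.740 with the knockout label. These values stand for few reads, 6, 13 and 10 against 2, 1 and 3 for Kcnh4 and 4, 2 and 2 against 0, 0 and 1 for Kcnk18. Kcnj11 had 0, 2 and 2 against 1, 3 and 4. There, 1 read in library 1 labelled knockout (1.73) ranked above 2 in library 3 labelled wild type (1.57). In Kcnh5, 7 reads in library 2 labelled knockout (6.26) ranked above 9 in library 2 labelled wild type (5.87). Without the size factors the groups of these 2 genes would overlap.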
